A study of Mus musculus with 4 samples.

Results

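The 37 genes described here encode aminoacyl-tRNA synthetases of the mouse. They were taken by gene symbol from a list of cytosolic and mitochondrial enzymes, and all 37 were found among the 55573 genes of the deposited table. Of these, 19 encode cytosolic enzymes, 16 encode mitochondrial enzymes, whose names end in 2, and 2 (Gars and Kars) encode enzymes that serve both compartments. Tarsl2, whose name also ends in 2, is counted among the cytosolic genes. All 37 passed the filter on low counts.

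RNA was sequenced from SmoWT cells, a mouse medulloblastoma culture of the Sonic Hedgehog (SHH) subtype. The culture was derived from medulloblastomas that arose on their own in C57BL/6 mice of genotype Ptch1+/-, Trp53-/-, and it was kept as neurospheres, so every library carried loss of Trp53 and a mutated Ptch1 allele. A pair of libraries came from cells given DMSO, the solvent, and a pair from cells given 0.1 µM GDC0449 for 24 h. GDC0449 (vismodegib) blocks Smoothened, the membrane protein that Ptch1 normally holds inactive. How many tumours or mice the culture derives from, their age, and whether replicates were separate cultures are not stated in the labels, so the spread behind each p-value is that of these libraries alone and may be technical.

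Aminoacyl-tRNA synthetases join each amino acid to its tRNA, the step that lets the ribosome read the genetic code. The cytosol and the mitochondrion have mostly separate sets of these enzymes, all encoded in the nucleus. Several cytosolic synthetase genes are known targets of ATF4, the transcription factor of the integrated stress response and the amino acid response, which binds C/EBP-ATF response elements near their start sites. Granule neuron progenitors and the SHH tumours that resemble them divide fast and make much protein.

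The libraries held 16329721 to 20790030 reads in genes. Levels are given as CPM, reads of a gene scaled to the library total after adjustment between libraries with TMM, and levels compared between genes are given as the authors' FPKM, which divides by gene length. A gene was called when its Benjamini-Hochberg adjusted p from edgeR's quasi-likelihood test was below 0.05 over the 15472 genes tested and its fold change was above 1.5. By that rule 588 genes, 3.80% of those tested, were lower in GDC0449 and 1333, 8.62%, were higher. Gli1, the readout of Hedgehog activity, stood at 272 ± 12.9 CPM under DMSO against 35.8 ± 4.29 CPM under the drug (SD, n = 2). Of 7 granule neuron progenitor markers, 6 were detected above 1 CPM and Barhl1 stayed below it; 2 rose, Atoh1 and Meis1 (log2 fold changes 0.81 and 0.96), and of the other 4, Zic1 and Zic2 passed the adjusted p upward and Mycn and Pax6 downward, all under 1.5-fold. Reads outside genes made up 12.3% and 13.2% of the DMSO libraries and 14.3% and 14.4% of the GDC0449 libraries. Of 6 astrocyte markers 2, Slc1a2 and Aldoc, rose and 0 fell, with Aqp4 at 0 in every library. The 6 summed to 155 to 170 CPM in DMSO and 262 to 270 CPM in GDC0449. Most of that rise was Slc1a2, at a mean of 78.1 CPM in DMSO and 177 CPM in GDC0449. Slc1a3, also abundant, was not called, at 75.3 and 71.5 CPM, and neither were Gfap and S100b. Of 6 oligodendrocyte lineage markers 0 were called; they summed to 63.6 to 63.7 CPM in DMSO and 79.4 to 79.5 CPM in GDC0449, with Mbp past the adjusted p upward (1.36e-05, log2 fold change 0.41) and Olig1 at 0. The 6 microglia and macrophage markers summed to 4.68 to 6.33 CPM in DMSO and 2.18 to 2.65 CPM in GDC0449. Of these, 3 were tested and 2, Tyrobp and Lyz2, were called lower (log2 fold changes -2.09 and -1.17). Of 5 fibroblast and meninges markers 3 were tested and 1, Col3a1, was called higher (1.51). Of 5 endothelium and pericyte markers 2 were tested, with Pecam1 called higher (1.72) and Pdgfrb lower (-1.30). Each of these 2 lists summed to at most 2.23 CPM in any library. Lum, Cdh5, Kdr and Cd3e were at 0. The part of these differences in the results below was not tested. In bulk samples, fewer cells of a type and less RNA per cell cannot be told apart.

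Many cytosolic synthetase transcripts were lower in GDC0449, and no mitochondrial one was called. Of the 19 cytosolic genes 9 fell (47.4%) and 0 rose, and of the 16 mitochondrial genes 0 were called, against 3.80% of all tested genes called lower. Gars fell and Kars, the other gene that serves both compartments, was not called. The median log2 fold change was -0.54 for the cytosolic genes, -0.13 for the mitochondrial genes and 0.01 for all tested genes. Without a fold threshold, 16 cytosolic genes (84.2%) and 4 mitochondrial genes (25.0%) passed the adjusted p downward and none of either passed it upward, against 18.0% of all tested genes downward. Among tested genes with a mean of 100 to 1000 CPM, where most cytosolic members lie, 34.5% passed the adjusted p downward and 3.97% were called lower. Among those with a mean of 5 to 200 CPM, where the mitochondrial members lie, the shares were 22.3% and 3.34%. With other settings the share of all genes called lower was 3.85% with relative log expression, 3.44% with upper-quartile scaling, 1.78% with no filter, 3.35% with at least 5 CPM in 2 libraries, 3.02% with DESeq2 and 3.83% with limma-voom. It was 2.68% on log2(FPKM + 1), 3.22% on log2(FPKM + 0.1) and 3.93% with a replicate block. Leaving out DMSO replicate 1 or 2 gave 2.19% or 2.14%, and leaving out GDC0449 replicate 1 or 2 gave 3.34% or 3.64%. The 9 cytosolic genes and Gars were called in each of these.

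**Figure D1:**
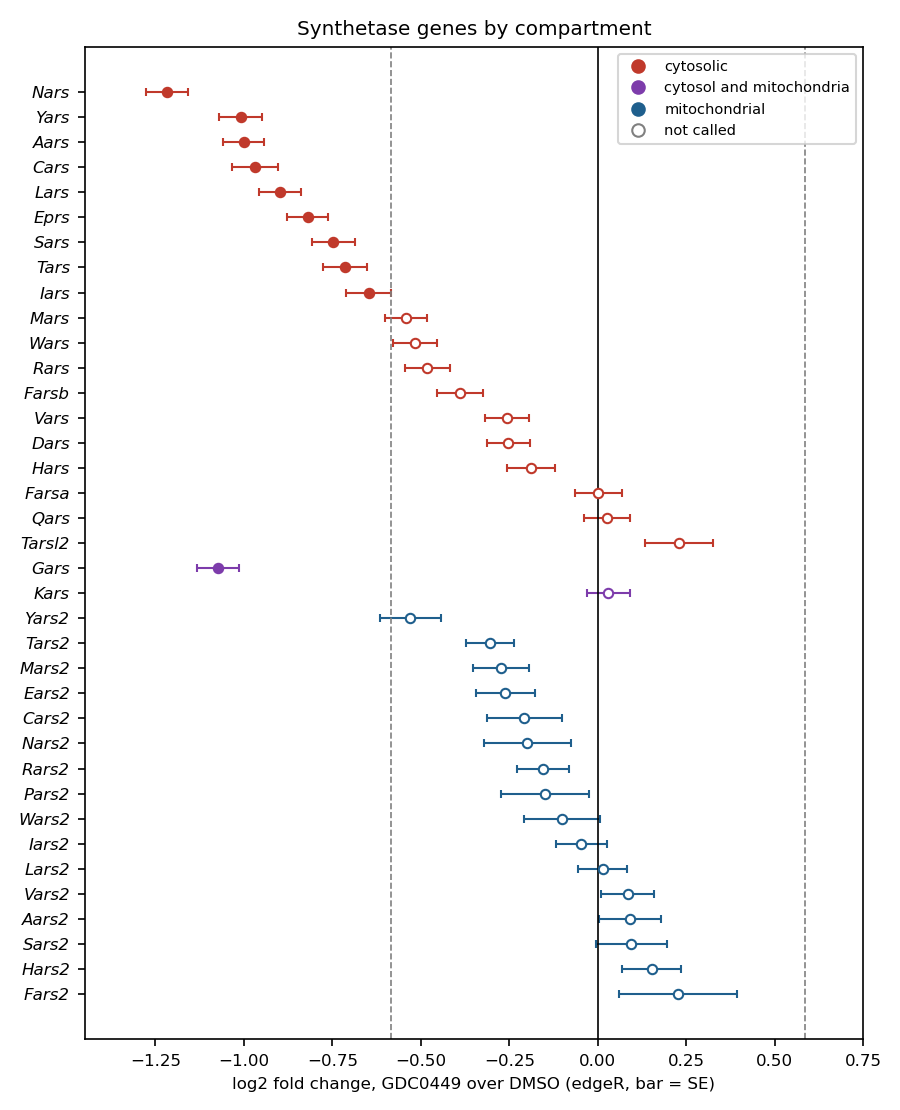
Log2 fold change of each synthetase gene in GDC0449 over DMSO (x axis) with its standard error from edgeR, grouped by compartment; filled points were called and dashed lines mark 1.5-fold. The 10 filled points, 9 cytosolic genes and Gars, all lie below 0.

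Summed over the 19 cytosolic genes, transcripts stood at 7638 and 7424 CPM in DMSO and at 4621 and 4646 CPM in GDC0449, 38.5% lower on average. Summed over the 16 mitochondrial genes they stood at 826 and 826 CPM in DMSO and at 790.4 and 755 CPM in GDC0449, 6.40% lower. The cytosolic sums of the groups lay far apart compared with the gap between replicates. These sums are given as a description, with no test.

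Among the members edgeR gave the largest fall to Nars, which encodes the enzyme for asparagine (ENSMUSG00000024587, chromosome 18). Nars was at 753 and 725 CPM in DMSO and at 311.9 and 324 CPM in GDC0449. Both treated libraries lay far below both controls, and the fall was 2.32-fold (log2 fold change -1.22, SE 0.06, edgeR adjusted p = 8.10e-23). On the authors' FPKM the DMSO libraries were further apart, at 227 and 148, and the GDC0449 libraries stood at 94.2 and 101. Over the 13 alternative fits its log2 fold change ran from -1.25 to -0.91, so its place among the members depends on the fit.

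Gars, for glycine, encodes the enzyme of both compartments (ENSMUSG00000029777, chromosome 6, 55038007 to 55079500, GRCm38). It was at 615 and 618.2 CPM in DMSO and at 287 and 299 CPM in GDC0449. The groups did not overlap, and the fall was 2.10-fold (log2 fold change -1.07, SE 0.06, edgeR adjusted p = 1.07e-20). Kars, for lysine, was at 236 and 231 CPM in DMSO and at 242 and 235 CPM in GDC0449. Its groups overlapped, and its log2 fold change of 0.03 had a 95% interval from -0.09 to 0.15. By FPKM, Gars was 2.23 and 2.27 times as abundant as Kars under DMSO, and 1.00 and 1.09 times under GDC0449. The size of this ratio depends on how length is taken. By CPM per kilobase of annotated exon, Gars stood at 197 and 198 and Kars at 52.9 and 51.7 under DMSO. Under GDC0449 Gars stood at 92.1 and 95.8 and Kars at 54.2 and 52.7, so Gars stayed above Kars by that measure.

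Yars, for tyrosine, was at 328 and 317 CPM in DMSO and at 164 and 156 CPM in GDC0449, a 2.01-fold fall (adjusted p = 4.50e-19). Aars, for alanine (ENSMUSG00000031960, chromosome 8, 111033144 to 111057664), was at 988 and 928 CPM in DMSO and at 476 and 482 CPM in GDC0449, a 2.0-fold fall (adjusted p = 7.72e-20). Cars, for cysteine, was at 224 and 210.0 CPM in DMSO and at 109.6 and 112 CPM in GDC0449, a 1.96-fold fall (adjusted p = 8.94e-18). In each of these genes both treated libraries lay clear below both controls. Aars shares 14.3% of its exonic bases with Exosc6 on the same strand, so part of its count is uncertain.

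Members of the multisynthetase complex, which holds 8 of these synthetases on a scaffold of 3 further proteins, fell in 3 of 8 cases. Lars, for leucine, was at 616 and 643 CPM in DMSO and at 337 and 339 CPM in GDC0449, a 1.86-fold fall (adjusted p = 6.23e-18). Eprs, whose protein charges tRNAs with both glutamate and proline, was at 1007 and 1043 CPM in DMSO and at 563 and 598 CPM in GDC0449, a 1.77-fold fall (adjusted p = 9.07e-17). Iars, for isoleucine, was at 221 and 222 CPM in DMSO and at 140.5 and 142 CPM in GDC0449, a 1.57-fold fall close to the fold threshold (log2 fold change -0.65, SE 0.06, adjusted p = 3.18e-12). Iars kept its call in each of 13 alternative fits, with log2 fold changes of -0.66 to -0.61. The groups of all 3 genes were clear of each other.

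Among the remaining complex members, Mars, for methionine, was at 860 and 779 CPM in DMSO and at 572 and 553 CPM in GDC0449. Its log2 fold change of -0.54 passed the adjusted p at 1.37e-10 and lay under the fold threshold, and without DMSO replicate 2 it was called, at -0.62. Rars, for arginine, and Dars, for aspartate, also passed the adjusted p under the fold threshold, with log2 fold changes of -0.48 and -0.25. Qars, for glutamine, was at 144 and 131 CPM in DMSO and at 141 and 139 CPM in GDC0449, with a log2 fold change of 0.03 and a 95% interval from -0.10 to 0.15, and its sign changed in 3 of 13 alternative fits. The complex thus held genes that fell, genes that passed the adjusted p under the fold threshold, and Kars and Qars, which did not pass it. Outside the complex, 6 of 12 cytosolic genes fell, with a median log2 fold change of -0.61, against 3 of 7 and -0.54 for the cytosolic genes within it; the difference was not tested.

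Sars, for serine, was at 524 and 499 CPM in DMSO and at 305 and 305 CPM in GDC0449, a 1.68-fold fall (adjusted p = 6.32e-15). Tars, for threonine, was at 373 and 368 CPM in DMSO and at 215 and 237 CPM in GDC0449, a 1.64-fold fall (adjusted p = 9.64e-14). Its relative Tarsl2, which encodes a second threonyl enzyme, was at 24.9 and 26.0 CPM in DMSO and at 31.6 and 28.1 CPM in GDC0449. Tarsl2 was the cytosolic member with the highest log2 fold change, 0.23, and missed the adjusted p at 0.0558. By FPKM, Tars was 11.1 and 9.95 times as abundant as Tarsl2 under DMSO and 4.91 and 5.98 times under GDC0449. The size of this ratio also depends on how length is taken. By CPM per kilobase of annotated exon, Tars stood at 63.2 and 62.4 and Tarsl2 at 3.70 and 3.86 under DMSO. Under GDC0449 Tars stood at 36.5 and 40.1 and Tarsl2 at 4.68 and 4.18.

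Phenylalanyl-tRNA synthetase of the cytosol is built from 2 kinds of subunit, encoded by Farsa and Farsb. Farsa was at 112 and 107 CPM in DMSO and at 113 and 107 CPM in GDC0449, with a log2 fold change of 0.00 and a 95% interval from -0.13 to 0.13, and its sign changed in 5 of 13 alternative fits. Farsb was at 192 and 208 CPM in DMSO and at 151 and 155 CPM in GDC0449, and passed the adjusted p (2.18e-06) with a log2 fold change of -0.39, under the fold threshold. The FPKM ratio of Farsa to Farsb was 0.623 and 0.543 under DMSO and 0.804 and 0.734 under GDC0449, with no overlap between the groups. Its size, too, depends on how length is taken. By CPM per kilobase of annotated exon, Farsa stood at 24.7 and 23.6 and Farsb at 73.4 and 79.5 under DMSO. Under GDC0449 Farsa stood at 24.9 and 23.5 and Farsb at 57.5 and 59.1. Farsb shares 9.47% of its exonic bases with Sgpp2 on the opposite strand.

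The other cytosolic genes also passed the adjusted p downward under the fold threshold. Wars, for tryptophan, had a log2 fold change of -0.52 (adjusted p = 1.46e-09), Vars, for valine, of -0.26 (adjusted p = 0.000761) and Hars, for histidine, of -0.19 (adjusted p = 0.0257). Hars missed the adjusted p in 10 of 13 alternative fits (up to 0.196), Vars in 6 (up to 0.150) and Dars in 3 (up to 0.0617), so 13 of the 16 cytosolic genes passed it in every fit. Of the 19 cytosolic genes, 16 had both GDC0449 libraries below both DMSO libraries and 1, Tarsl2, had both above; 32.2% of all tested genes were apart downward and 33.6% upward. By the structural class of the enzyme, 4 of 9 cytosolic class I genes and 4 of 9 cytosolic class II genes fell, and Eprs, which holds an enzyme of each class, fell as well.

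**Figure D2:**
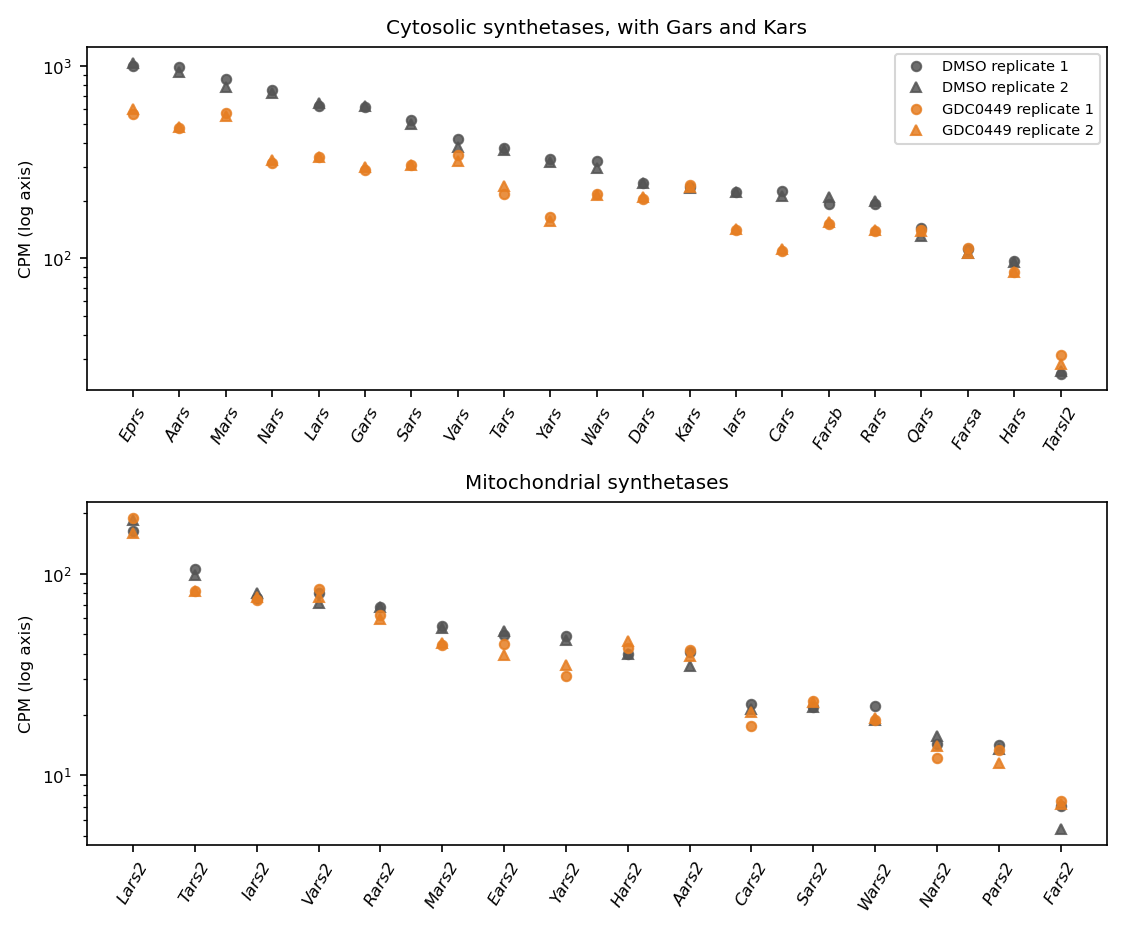
CPM of each synthetase gene in the 4 libraries on a log axis, with cytosolic genes, Gars and Kars above and mitochondrial genes below, each ordered by their DMSO mean. For Eprs, Aars, Nars, Lars, Gars and Sars the GDC0449 points lie clear below the DMSO points, while for Kars, Qars and Farsa they overlap.

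Mitochondrial synthetase transcripts were mostly scarcer than the cytosolic ones. With edgeR, DESeq2 and limma-voom 0 of the 16 was called, while 5 had an unadjusted p under 0.05, against 43.9% of all tested genes. Yars2, for tyrosine, was at 49.0 and 46.6 CPM in DMSO and at 31.2 and 35.1 CPM in GDC0449, with a log2 fold change of -0.53 (SE 0.09, edgeR adjusted p = 1.71e-06) that lay under the fold threshold. Without GDC0449 replicate 2 it was called, at -0.62. Yars2 thus had the lowest value of the mitochondrial set, and its cytosolic counterpart Yars is among the genes that fell most.

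Tars2, for threonine, was at 105 and 98.0 CPM in DMSO and at 82.0 and 82.4 CPM in GDC0449, with a log2 fold change of -0.30 (adjusted p = 0.000386). Mars2, for methionine, was at 54.9 and 53.5 CPM in DMSO and at 44.5 and 45.3 CPM in GDC0449, with a log2 fold change of -0.27 (adjusted p = 0.00491). Ears2, for glutamate, was at 49.5 and 51.9 CPM in DMSO and at 45.0 and 39.5 CPM in GDC0449, with a log2 fold change of -0.26 (adjusted p = 0.0105). In all 3 the groups were apart and the difference was smaller than 1.5-fold. Each of the 4 missed the adjusted p in some of the 13 alternative fits: Yars2 in 2, Tars2 in 3, Mars2 in 5 and Ears2 in 7. Rars2 and Cars2, the next by p, had log2 fold changes of -0.15 and -0.21 and missed the adjusted p at 0.0966 and 0.129. Rars2 was at 68.0 and 67.9 CPM in DMSO and at 62.6 and 59.5 CPM in GDC0449. Cars2 was at 22.6 and 21.4 CPM in DMSO and at 17.6 and 20.5 CPM in GDC0449. Neither gene's groups overlapped, though the treated replicates of Cars2 lay further apart from each other than the groups did at their nearest. Of the 16 mitochondrial genes 8 had groups apart downward and 3 upward, against 32.2% and 33.6% of all tested genes.

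The remaining 10 mitochondrial genes had log2 fold changes from -0.20 (Nars2) to 0.23 (Fars2), and none passed the adjusted p. Pars2, Wars2 and Iars2 lay below 0 at -0.15, -0.10 and -0.05, and Lars2, Vars2, Aars2, Sars2 and Hars2 lay above it at 0.01, 0.08, 0.09, 0.09 and 0.15. Fars2, for phenylalanine, was the scarcest member, with 87 to 157 reads per library, and its estimate had a 95% interval from -0.10 to 0.55. Lars2, for leucine, was the most abundant mitochondrial member by FPKM and had the widest gap between GDC0449 replicates of all members on the log2 scale (0.25), at 190 and 160 CPM. Iars2 shares 24.2% and Fars2 10.7% of their exonic bases with genes on the opposite strand, so their counts are uncertain.

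The order of levels per length shifted with the treatment among the abundant genes. By FPKM in DMSO the highest were Mars at 189 ± 13.6, Nars at 188 ± 55.6, Gars at 171 ± 1.33 and Eprs at 137 (SD, n = 2); Mars, Nars and Gars did not differ beyond the spread of Nars. Kars ranked 9 of 37 in DMSO and 5 in GDC0449, at 76.1 and 77.9 FPKM. Aars went from rank 6, at 109.6 FPKM, to rank 10, at 55.5, and Yars from rank 8, at 76.4, to rank 16, at 38.3. At the lower end stood Mars2, Nars2, Wars2 and Fars2, at 3.22, 2.87, 2.75 and 2.21 FPKM in DMSO. Of the cytosolic genes, Qars at 23.1 and Tarsl2 at 6.23 FPKM lay within the range of mitochondrial genes, whose highest, Lars2, stood at 27.8. The order depends on how length is taken: by counts per kilobase of annotated exon Mars, Gars and Nars led in DMSO, Eprs ranked 12, Kars went from rank 15 to 9 and Aars from 5 to 10.

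To set each cytosolic gene against the mitochondrial gene for the same amino acid, the log2 ratio of their CPM was taken within each library, with 0.5 CPM added to each. Such a ratio does not depend on depth, and gene length cancels in its change. In 17 of 18 pairs both GDC0449 libraries had a lower ratio than both DMSO libraries, and in 1 pair a higher one. No base rate was computed for pairs; of single tested genes, 32.2% were apart downward and 33.6% upward in CPM. The median change over pairs was -0.52. Pairs share genes (Eprs, Fars2 and Tars2 each appear in more than 1), and with 2 libraries a group no exact two-sided permutation p can fall below 0.333, so no p is given.

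**Figure D3:**
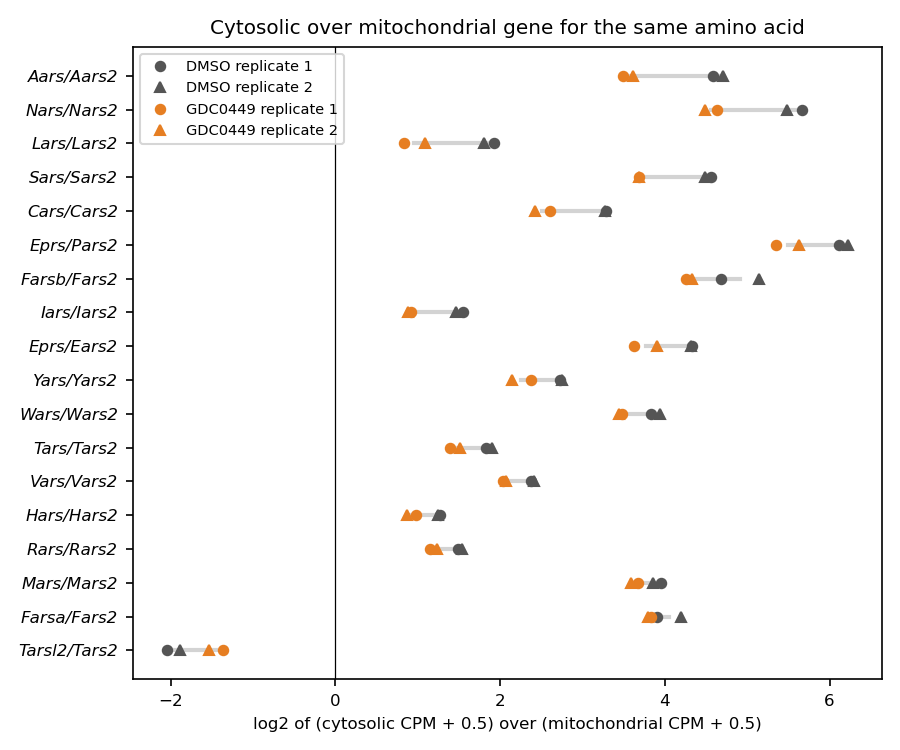
Log2 ratio of cytosolic over mitochondrial CPM (x axis, 0.5 CPM added) in each of the 4 libraries for 18 pairs of genes that serve the same amino acid; grey bars join the group means. In 17 pairs the GDC0449 points lie to the left of the DMSO points, and in Tarsl2/Tars2 to the right.

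For alanine, the log2 ratio of Aars to Aars2 was 4.58 and 4.71 under DMSO and 3.49 and 3.61 under GDC0449, a change of -1.10. For asparagine, that of Nars to Nars2 was 5.67 and 5.48 in DMSO and 4.63 and 4.49 in GDC0449, a change of -1.02. For tyrosine, where both genes were lower, that of Yars to Yars2 was 2.73 and 2.75 in DMSO and 2.37 and 2.14 in GDC0449, a change of -0.48. The cytosolic gene stayed the more abundant of each of these pairs by CPM. The smallest changes downward were those of Farsa/Fars2 and Mars/Mars2, at -0.23 and -0.27. In Farsa/Fars2 the cytosolic gene did not fall: edgeR gave log2 fold changes of 0.00 for Farsa and 0.23 for Fars2, and neither passed the adjusted p. The pair that went the other way, Tarsl2/Tars2, went from -2.05 and -1.89 in DMSO to -1.36 and -1.53 in GDC0449.

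Some members overlap another gene or lie near one on the same chromosome. Hars and Hars2 run in opposite directions from overlapping ends on chromosome 18, with 198 bases in common, and had log2 fold changes of -0.19 and 0.15. Eprs and Iars2 point away from each other on chromosome 1 with 33647 bases between them, and had log2 fold changes of -0.82 and -0.05. Mars overlaps the stress gene Ddit3 by 68 bases on the opposite strand of chromosome 10, with log2 fold changes of -0.54 and -1.65. The strand setting of the counting is not given in the sources used, so reads in shared bases cannot be assigned.

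Promoters were searched because several synthetase genes are known ATF4 targets. RefSeq promoters (build GRCm38.p6, 250 bases before to 50 bases after the start) were matched for 28 of the 37 members. Each was searched on both strands for TGATGNAA, the core of the C/EBP-ATF response element to which ATF4 binds. The letters were found in Aars, Gars, Iars, Tars and Yars. These are 5 of the 7 members called lower that had a promoter entry. They were found in 0 of 7 cytosolic or shared members that were not called and in 0 of 14 mitochondrial members. Of these, Dars, Farsb, Mars, Ears2, Mars2, Tars2 and Yars2 passed the adjusted p downward under the fold threshold. The split by call therefore depends on that threshold. Among all 32851 promoters of this length 3.97% hold these letters, and among all 27025 genes 4.51%. A match is a description of letters, not of binding, and a promoter without one says only that these letters are not in that window.

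Matched sites are shown, 1 for each gene, so that the element can be compared between the 5 genes; Eprs and Sars fell without it, and Cars, Lars and Nars had no promoter entry to search. Each is the 30 bases around the match along the strand of the gene, with the match in capitals, which reads as the reverse complement where the element is on the other strand. Positions are counted from the first transcribed base as 1.
Aars, from base 10, chr8:111033840-111033869: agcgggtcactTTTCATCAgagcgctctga
Gars, 30 bases before the start, chr6:55037960-55037989: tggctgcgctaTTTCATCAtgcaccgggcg
Iars, from base 8, chr13:49682126-49682155: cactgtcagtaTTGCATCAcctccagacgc
Tars, 15 bases before the start, chr15:11399655-11399684: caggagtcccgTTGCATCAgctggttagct
Yars, from base 4, chr4:129189895-129189924: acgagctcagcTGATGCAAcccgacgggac

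The windows of Aars, Iars, Tars and Yars overlap annotated exons of those genes in GENCODE M21, and the Gars window overlaps none. Of the sites shown, that of Yars runs in the direction of the gene and the others run against it. For comparison, the site of Asns, asparagine synthetase, whose element for amino acid shortage is well known, and that of Chac1, a glutathione-degrading enzyme induced by ATF4, are printed in the same way.
Asns, 23 bases before the start, chr6:7693214-7693243: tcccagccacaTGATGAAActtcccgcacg
Chac1, 193 bases before the start, chr2:119351038-119351067: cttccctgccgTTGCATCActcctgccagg

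The stretch from 100 bases before the start to the base before it is printed for Gars, which fell and holds the element, for Sars, which fell without a match, and for Farsa, which was not called and has no match. These examples were chosen after their values were seen, among promoters with no annotated exon in the stretch.
Gars, chr6:55037901-55038000, plus strand: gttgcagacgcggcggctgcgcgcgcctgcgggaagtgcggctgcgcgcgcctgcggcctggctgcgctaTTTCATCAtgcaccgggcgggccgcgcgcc
Sars, chr3:108445260-108445359, minus strand: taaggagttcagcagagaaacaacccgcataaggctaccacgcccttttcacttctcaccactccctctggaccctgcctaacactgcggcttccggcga
Farsa, chr8:84856886-84856985, plus strand: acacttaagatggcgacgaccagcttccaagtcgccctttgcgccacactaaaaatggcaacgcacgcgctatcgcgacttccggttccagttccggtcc
The Gars stretch is richer in G and C, at 77.0%, than those of Sars and Farsa, at 56.0% and 57.0%.

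The genes of the stress and amino acid response itself had larger fold changes by median than the synthetases. Of 28 listed genes 27 fell and 0 rose, with a median log2 fold change of -1.40; this list was drawn up with the fall of such genes already known, so its count is no independent evidence. Atf4 stood at 537 ± 31.0 CPM under DMSO against 262 ± 0.0414 CPM under the drug (SD, n = 2), a 2.05-fold fall. Asns fell 2.15-fold and Ddit3, which encodes the stress factor CHOP, 3.13-fold. Trib3, an inhibitor of ATF4, fell 8.53-fold. Ppp1r15a, a phosphatase subunit that ends the response, went from 144 ± 5.15 to 22.5 ± 0.522 CPM. Sesn2, a leucine sensor, fell 3.61-fold and Chac1 5.22-fold. Ddit4, named after its values were seen, was the exception, at 162 ± 5.52 and 207 ± 18.4 CPM, past the adjusted p upward (2.10e-05) but under 1.5-fold. Of the 25 with a promoter entry, 8 hold the element in the same window.

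Partners of the synthetases moved mostly by small amounts. Of 18 related genes 2 fell (11.1%, against 3.80% of all tested genes) and 0 rose, with a median log2 fold change of -0.18. Without the fold threshold 7 (38.9%) passed the adjusted p downward and 1 upward, against 18.0% of all tested genes each way. Among tested genes with a mean of 5 to 200 CPM, where most of the 18 lie, 22.3% passed it downward. Of the 18, groups were apart downward in 11 (61.1%), against 32.2% of all tested genes. The 2 called lower were Xpot and Aarsd1. Xpot, the exportin that carries tRNAs out of the nucleus, stood at 1409 ± 5.80 CPM under DMSO against 745 ± 27.8 CPM under the drug (SD, n = 2), a 1.89-fold fall (edgeR adjusted p = 6.45e-19). The other, Aarsd1, an editing enzyme that frees wrongly charged tRNA, was scarce at 1.92 ± 0.166 and 0.948 ± 0.0679 CPM, while the authors' FPKM put it at 27.6 and 27.4 in DMSO and at 23.4 and 24.1 in GDC0449; its counts and its FPKM therefore disagree on its level and on the size of its difference. The scaffold proteins of the multisynthetase complex, Aimp1, Aimp2 and Eef1e1, were not called, at log2 fold changes of -0.19, -0.18 and -0.26. Of the 18 related genes 13 had a promoter entry, and 0 of them hold TGATGNAA in the window searched.

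**Figure D4:**
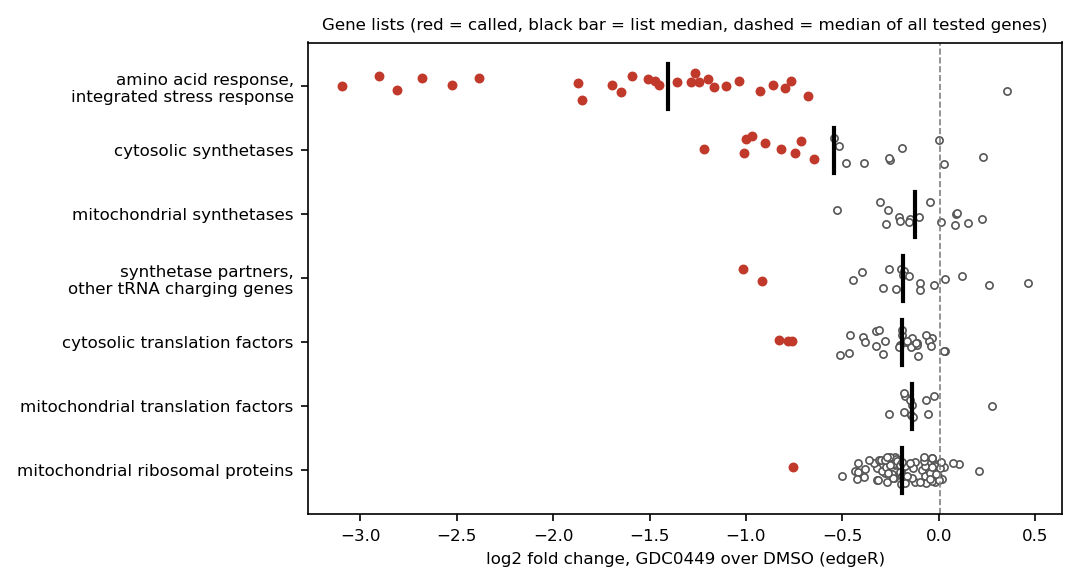
Log2 fold changes in GDC0449 over DMSO for members of 7 gene lists, with called genes in red, the list median as a black bar and the median of all tested genes as a dashed line. The stress list lies furthest left, with a median of -1.40, the cytosolic synthetases follow at -0.54, and the other 5 lists have medians between -0.19 and -0.13.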

How the data were processed

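The members and gene lists were chosen with earlier results of these data known. Per the submitters' processing notes, the authors trimmed reads with Trim Galore, mapped them to mm10 with HISAT2 and counted reads per gene with HTSeq 0.11.1; the notes also name DESeq2 1.26.0. The deposited table holds raw counts and the authors' FPKM, calculated by them from mapped reads and gene length, per the series' text; annotation release and strand setting: not given in the sources used here. Counts were read as deposited, and the 6 entries naming no gene were left out. Names, exons and positions came from GENCODE M21 (GRCm38), which held 55480 of 55573 identifiers.

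All genes were tested with edgeR 4.0.16 (R 4.3.3): default expression filter, TMM, quasi-likelihood test, group as the only term, 4 libraries. The residual degrees of freedom were 2 and the median prior degrees of freedom 46.0, so each gene's spread was taken largely from other genes. SE was taken as the size of the log2 fold change over the root of the F statistic, and 95% intervals are normal intervals from it. Levels are CPM with TMM factors. Replicates differed by more than sampling noise (chi-square per gene 3.95 in DMSO, 3.17 in GDC0449). All members are named, with values per library for called cytosolic genes, Gars, Kars and the 6 mitochondrial genes of smallest p. From each related list up to 4 called genes of smallest p are named, or 2 where none was called, plus Atf4, Ddit3, Asns, Gli1, Aimp1, Aimp2 and Eef1e1. Other genes with values (such as Ddit4, and the per-library values of Mars, Qars, Farsa, Farsb and Tarsl2) were chosen after they were seen. Alternatives were other scalings, filters and thresholds, DESeq2 1.42.0, limma 3.58.1 (voom, and log2 FPKM with 1 or 0.1 added), a replicate block and leaving out each library. The scripts were tested on simulated counts. Some items are not reported here.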

Additional observations from a re-analysis of the deposited data

How the results depend on the processing

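The 10 called members kept their call and direction in all 13 alternative fits, and the counts of 9 cytosolic genes and 1 shared gene called lower were the same with the other scalings, filters, tools and units. Leaving out each library gave 9 to 10 cytosolic and 0 to 1 mitochondrial genes called lower; the added genes were Mars, without DMSO replicate 2, and Yars2, without GDC0449 replicate 2. On adjusted p alone 16 cytosolic and 4 mitochondrial genes were lower, and above 2-fold 3 cytosolic genes were. The median change over the 18 pairs ranged from -0.53 to -0.43 when each library was left out, with the smallest change without DMSO replicate 2. The longer motif TGATGNAAT was found in 3 members.

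Over all genes, 588 lower and 1333 higher became 367 and 798 with the filter at 5 CPM, where fewer genes were tested. They became 350 and 520 on log2(FPKM + 1), with 661 higher on log2(FPKM + 0.1). They became 2779 and 2778 on adjusted p alone, and 309 and 646 above 2-fold. Leaving out each library gave 347 to 581 lower and 505 to 1130 higher, fewest without either DMSO replicate (357 and 572 without DMSO replicate 1, 347 and 505 without DMSO replicate 2); the cause was not tested.

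The labels give both groups replicate numbers 1 and 2 but do not say that a number marks a shared culture, and deviations of same-numbered libraries correlated at 0.061 over genes. With the replicate block 608 genes were lower and 1392 higher, and 9 cytosolic, 1 shared and 0 mitochondrial synthetase genes were called lower, so the block changed no call of a member. With 87 reads in its shallowest library, Fars2 is the member whose estimate depth limits most.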

Other observations

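Other parts of the translation machinery had smaller fold changes by median than the cytosolic synthetases. Of 32 cytosolic translation factors 3 fell (9.38%, against 3.80% of all tested genes) and 0 rose, with a median log2 fold change of -0.19. Without the fold threshold 20 of the 32 (62.5%) passed the adjusted p downward, against 18.0% of all tested genes, and 25 (78.1%) had groups apart downward, against 32.2%. Among tested genes with a mean of 100 to 1000 CPM, where most of these factors lie, 34.5% passed the adjusted p downward. Eif2s2, the beta subunit of eIF2, which brings the initiator tRNA to the ribosome, stood at 433 ± 15.8 CPM under DMSO against 244 ± 6.80 CPM under GDC0449 (SD, n = 2), a 1.77-fold fall (edgeR adjusted p = 3.25e-16). Eif3c, a subunit of the initiation factor eIF3, fell 1.72-fold, from 1108 ± 22.5 to 646 ± 5.19 CPM, and Eif2b3, a subunit of the factor that recharges eIF2 with GTP, fell 1.70-fold, from 64.6 ± 1.11 to 38.1 ± 1.07 CPM. By the authors' FPKM the DMSO libraries of Eif2b3 were far apart, at 25.7 and 10.9.

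In the mitochondrion, 0 of 12 translation factors was called with edgeR, with a median log2 fold change of -0.14. An unadjusted p under 0.05 was found for 4 of them, against 43.9% of all tested genes. The adjusted p was passed downward by 3 (25.0%), against 18.0%, and 8 (66.7%) had groups apart downward, against 32.2%. Among tested genes with a mean of 5 to 200 CPM, where these factors lie, 22.3% passed the adjusted p downward. Mtg1, a GTPase of mitoribosome assembly, had the smallest p, at 37.6 and 36.4 CPM in DMSO and 31.3 and 30.6 CPM in GDC0449. Gfm1, a mitochondrial elongation factor, followed at 106 and 110.3 CPM in DMSO and 93.6 and 97.7 CPM in GDC0449. Of 77 mitochondrial ribosomal protein genes tested 1, Mrps34, was called lower, at 5.90 ± 2.38 and 3.56 ± 2.41 CPM with overlapping groups, and the median was -0.19. Without the fold threshold 33 of the 77 (42.9%) passed the adjusted p downward and 0 upward, against 18.0% of all tested genes downward. The share downward was 22.3% among tested genes with a mean of 5 to 200 CPM, where most of the 77 lie. Of the 77, groups were apart downward in 49 (63.6%), against 32.2% of all tested genes, and upward in 2. The medians of these lists were close to that of the mitochondrial synthetases, and no difference between lists was tested.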
